A study of Mus musculus with 14 samples.

Results

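Broad H3K4me3 domains were studied in immortalised mouse embryo fibroblasts (iMEF). H3K4me3, the trimethylation of lysine 4 of histone H3, was mapped by chromatin immunoprecipitation and sequencing (ChIP-seq), and the regions found across all libraries had been joined in 1 list of peaks. A peak was called broad when it was at least 2500 bp wide, and the broad peaks were thus chosen by their width alone. Of 25354 peaks on chromosomes 1 to 19 and X, 819 were broad. The whole list held 25431 peaks, and 0 broad peaks lay on chromosome Y or on unplaced scaffolds. Narrower peaks of 1000 to 1500 bp, of which there were 4699, served for comparison.

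The cells carried floxed Ash2l alleles and a Cre-ER recombinase, and exon 4 of the endogenous gene had been deleted. They depended on human ASH2L joined at its N terminus to FKBP12F36V, delivered with a lentiviral construct. Per the study's figure legends the Cre-ER was driven by the CAGG promoter and the cells were 1 clone. Addition of dTAG ties this fusion protein to an E3 ubiquitin ligase, and the protein is then degraded. The 12 H3K4me3 libraries came from untreated cells and from cells exposed to dTAG for 30 min, 2 h, 4 h, 8 h or 16 h, with 2 replicates each. Every group thus shared the Ash2l deletion and the construct for the fusion protein, and the groups differed in the time with dTAG. Besides these, 2 input libraries had been made, 1 without dTAG and 1 after 16 h. The list holds positions and no value for any library. A width is therefore that of the joined region, the depth is unknown, no replicate error could be computed, and no time points were compared.

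H3K4me3 is deposited by the KMT2 and SETD1 methyltransferases, which need ASH2L as a core subunit. Most active promoters carry a narrow stretch of the mark that begins near the transcription start site (TSS) and reaches over the first nucleosomes of the transcribed region. At some promoters the mark spreads over several kilobases, and such broad domains are known for marking genes that define the identity of a cell type. CpG islands, which are stretches rich in CpG dinucleotides, recruit methyltransferase complexes through proteins with CXXC domains.

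DNA of 3 broad peaks and of 1 comparison peak is shown to let the spread of CpG density be read from the letters themselves. Arhgef17, which encodes a guanine nucleotide exchange factor, had the widest peak. Esrp2, a splicing factor gene, had the broad peak nearest to the median CpG ratio. Arhgef2, another exchange factor gene, had the lowest ratio. Rps6ka1, which encodes the kinase RSK1, had the comparison peak nearest to the median of its class. Each window is 200 bases long, from build mm10 (GRCm38.p6), written 5′ to 3′ in the direction of the gene, with every CpG in capitals. Windows were shifted until they held no untranslated exon. The first window of a gene lies before the TSS, and the second lies at the downstream edge or as near to it as that shift allowed.
Arhgef17, window before the TSS (chr7:100932108-100932307, minus strand, first base 200 bp before the TSS): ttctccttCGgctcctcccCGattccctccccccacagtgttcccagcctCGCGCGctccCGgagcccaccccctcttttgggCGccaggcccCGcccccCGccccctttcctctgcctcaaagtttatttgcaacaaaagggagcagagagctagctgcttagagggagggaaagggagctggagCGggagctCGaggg
Arhgef17, window toward the downstream edge (chr7:100925790-100925989, minus strand, first base 6118 bp after the TSS): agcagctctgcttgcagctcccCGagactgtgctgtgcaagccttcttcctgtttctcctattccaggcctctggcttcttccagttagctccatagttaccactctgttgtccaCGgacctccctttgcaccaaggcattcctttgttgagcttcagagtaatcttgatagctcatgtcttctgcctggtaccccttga
Esrp2, window before the TSS (chr8:106136975-106137174, minus strand, first base 200 bp before the TSS): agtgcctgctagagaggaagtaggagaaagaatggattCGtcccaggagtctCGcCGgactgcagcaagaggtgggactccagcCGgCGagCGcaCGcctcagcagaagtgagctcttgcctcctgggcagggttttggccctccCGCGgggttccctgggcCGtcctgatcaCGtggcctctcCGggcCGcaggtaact
Esrp2, window toward the downstream edge (chr8:106136357-106136556, minus strand, first base 418 bp after the TSS): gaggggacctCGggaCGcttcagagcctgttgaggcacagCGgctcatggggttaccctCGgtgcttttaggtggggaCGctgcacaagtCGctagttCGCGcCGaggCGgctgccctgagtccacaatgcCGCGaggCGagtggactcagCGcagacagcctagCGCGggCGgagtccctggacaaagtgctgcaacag
Arhgef2, window before the TSS (chr3:88615942-88616141, plus strand, first base 575 bp before the TSS): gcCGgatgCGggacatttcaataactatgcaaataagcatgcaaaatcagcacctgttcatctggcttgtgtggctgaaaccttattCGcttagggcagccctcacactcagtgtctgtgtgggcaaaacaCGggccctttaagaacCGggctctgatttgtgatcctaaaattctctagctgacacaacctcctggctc
Arhgef2, window toward the downstream edge (chr3:88618860-88619059, plus strand, first base 2343 bp after the TSS): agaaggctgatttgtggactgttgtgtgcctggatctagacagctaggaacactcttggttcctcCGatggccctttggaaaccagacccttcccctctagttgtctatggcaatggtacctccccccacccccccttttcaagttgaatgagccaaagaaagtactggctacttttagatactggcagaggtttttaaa
Rps6ka1, window before the TSS (chr4:133887798-133887997, minus strand, first base 200 bp before the TSS): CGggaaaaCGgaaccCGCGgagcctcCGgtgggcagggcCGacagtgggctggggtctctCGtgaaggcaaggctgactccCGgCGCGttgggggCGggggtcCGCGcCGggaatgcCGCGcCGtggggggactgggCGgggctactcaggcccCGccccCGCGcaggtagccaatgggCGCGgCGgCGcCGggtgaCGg
The Arhgef17 window before the TSS held 11 CpGs and the window at the downstream edge held 2. In the Esrp2 peak both windows were rich in CpGs, with 13 before the TSS and 17 from 418 bp after it. Most of this peak lay upstream of the TSS, so its second window is also close to the TSS. Around the TSSs of broad peaks with exactly 1 coding gene, mean CpG density was 7.74 per 100 bp from 0 to 1 kb downstream. From 2 to 3 kb downstream it was 1.91. The Arhgef2 windows held 5 and 1 CpGs. The first of these lay outside the peak, 575 bp before the TSS. The Rps6ka1 window of the narrower peak held 27.

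Width was first described, without a test, because it chose the members. Broad peaks made up 3.23% of the peaks and 11.5% of the bases in peaks (2.57 of 22.3 Mb). The median broad peak measured 2923 bp, and 50% of them fell between 2674 and 3353 bp. The threshold did not fall in a gap of the distribution. The 3 peaks just outside it were 2499 bp wide, at Gskip and Atg2b, at Lmf2 and Ncaph2, and at Zbtb10. The 3 peaks just inside were 2501 bp wide, at Arid5b, Gas1 and Zswim8. Of the broad peaks, 455 were under 3000 bp, 284 were from 3000 to 4000 bp, and 80 were 4000 bp or wider.

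**Figure D1:**
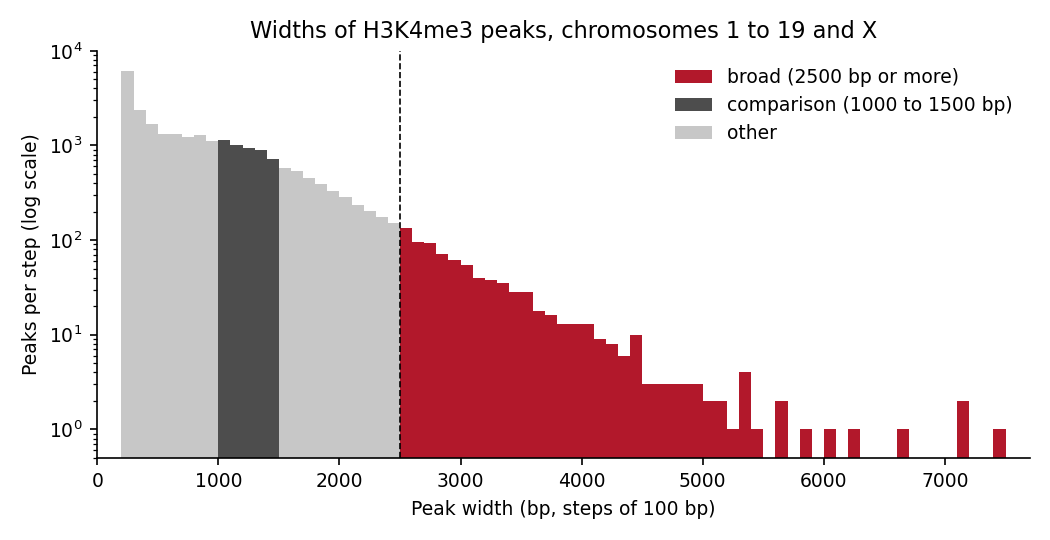
Number of H3K4me3 peaks (log axis) by width in steps of 100 bp on chromosomes 1 to 19 and X. Red bars are the 819 broad peaks, dark grey bars the 4699 comparison peaks, and the dashed line marks 2500 bp, where the counts decline without a break.

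The broad class was found on every chromosome examined, from 71 peaks on chromosome 11 to 10 on chromosome X. On the autosomes, broad peaks were 2.02% to 4.33% of the peaks of a chromosome, the lowest share on chromosome 13 and the highest on chromosome 19. On chromosome X, 10 of 853 peaks were broad, a share of 1.17% (Wilson 95% interval 0.638 to 2.14). Among them were the peaks at Bcor (4424 bp) and Hcfc1 (3599 bp). All intervals given here cover counting error over regions, which are not replicates.

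Nearly all broad peaks held the start of a protein-coding gene. A TSS of a coding gene of GENCODE release M21 lay in 781 of the 819 (95.4%, 95% interval 93.7 to 96.6). The share was 87.2% in comparison peaks, which is 8.15 percentage points lower (95% interval of the difference 6.25 to 9.73). A wider region can hold more starts by its size alone, and against peaks of 1500 to 2500 bp the difference was 1.58 points (interval -0.254 to 3.10). Broad peaks held the TSSs of 865 of 21755 coding genes, which is 3.98% of all coding genes and 7.11% of the 12168 coding genes with a TSS in any peak.

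Among the 20 widest of these peaks, that of Arhgef17 (7417 bp, chr7:100925790-100933206) was followed by that of Pcdh7, a protocadherin gene, with 7184 bp. Next came Smad7 (7130 bp), which encodes an inhibitor of TGF-beta signalling, and Tnrc18 (6692 bp). Tgif1 (6270 bp), a homeobox repressor of TGF-beta responses, and Col5a1 (6056 bp), a fibrillar collagen gene, were also wider than 6 kb. Then followed the transcription factor genes Hoxd11 (5861 bp) and Tfap2a (5641 bp), the phosphatase regulator gene Ppp1r18 (5622 bp), the adhesion receptor gene Flrt2 (5495 bp) and the actin-bundling gene Fscn1 (5377 bp). The others were the semaphorin receptor gene Nrp2 (5363 bp), the retinoic acid receptor gene Rara (5312 bp), Trim8 (5309 bp) and the Wnt co-activator gene Bcl9l (5288 bp), Nr2f2 (5169 bp), the growth factor receptor gene Igf1r (5106 bp), Ajuba (5061 bp), the angiogenic factor gene Vegfa (5020 bp) and Samd4 (4941 bp).

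These 20 peaks did not share a position around the TSS. In Tfap2a the peak began 19 bp before the TSS and ran 5622 bp into the gene, and in Rara the figures were 73 and 5239 bp. Tgif1 showed the opposite layout, with 4794 bp before the TSS used and 1476 bp after it. As 3.51% of this peak lay outside annotated genes, most bases before that TSS lay within a gene body. Igf1r was nearly balanced, with 2439 bp upstream and 2667 bp downstream. At Smad7 a separate broad peak of 3603 bp held another start of the gene, and 229 bp lay between them.

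**Figure D2:**
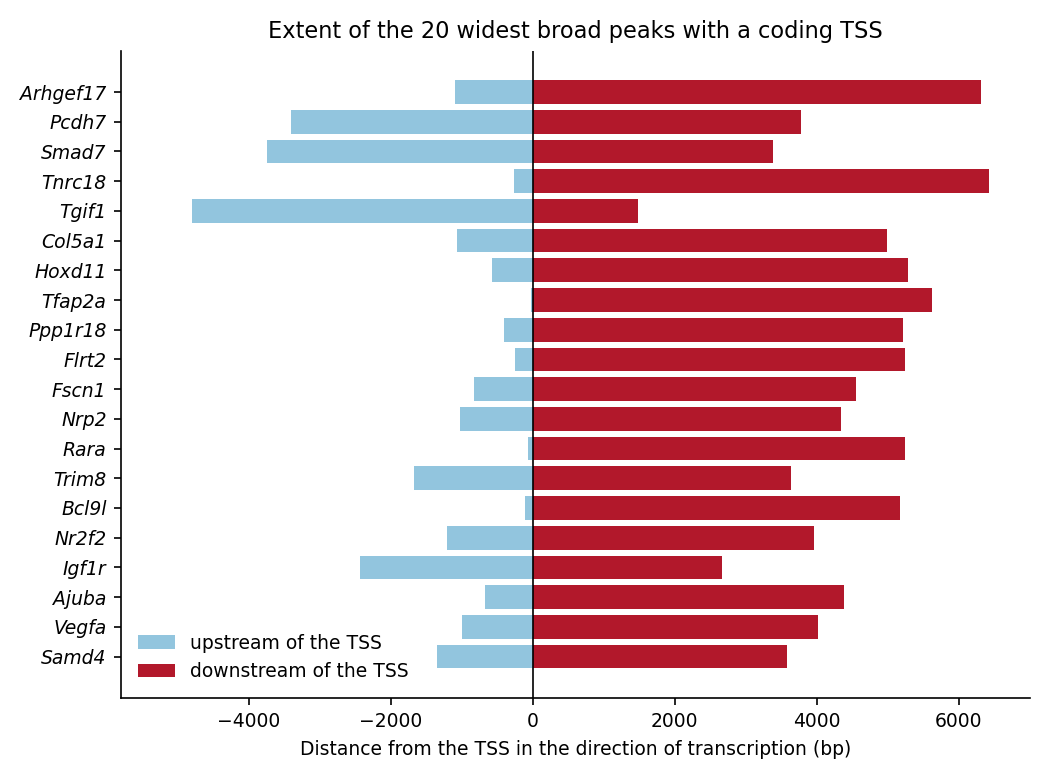
Extent of the 20 widest broad peaks with a coding TSS, in bp upstream (blue, negative) and downstream (red, positive) of the TSS in the direction of transcription. Tgif1 and Smad7 reach farther upstream than downstream of the TSS used, and the other 18 reach farther downstream. Of the Tgif1 and Smad7 peaks, 3.51% and 0% of the bases lay outside annotated genes.

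Position was then measured in the 688 broad peaks with exactly 1 coding gene. Distances were taken from the TSS at which most of the gene's transcripts in the peak start. The mark lay mostly inside the gene. A median of 79.0% of the peak's bases lay downstream of the TSS (95% interval 77.5 to 81.1, quartiles 66.95 and 91.1). The peaks reached a median of 621.5 bp upstream (quartiles 283.5 and 1010.5) and 2369.5 bp downstream (quartiles 1959.5 and 2839.5). In comparison peaks these medians were 186 and 1011 bp, and the downstream share was 85.03%. Relative to its width, the median broad peak thus had more of its bases upstream (95% interval of the difference in downstream share -8.27 to -3.25 percentage points). Against peaks of 1500 to 2500 bp, with a downstream share of 75.5%, the difference had the other sign, 3.55 points more downstream (interval 1.89 to 5.84).

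Single peaks differed widely in layout. In 45 of the 688 (6.54%, interval 4.92 to 8.64) more of the peak lay upstream than downstream, against 7.65% of 3815 comparison peaks. In 176 (25.6%) the peak began at least 1 kb upstream. In 113 (16.4%, interval 13.8 to 19.4) it began less than 100 bp before the TSS, against 43.2% of comparison peaks. Such sharp upstream edges were seen in these examples, chosen after their values were seen: Actb (cytoplasmic actin, 5 bp upstream and 3007 bp downstream), Ier2 (6 and 2969 bp) and Snai1 (a repressor of epithelial genes, 19 and 4274 bp). The downstream edge lay 3 kb or more into the gene in 138 peaks (20.1%).

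**Figure D3:**
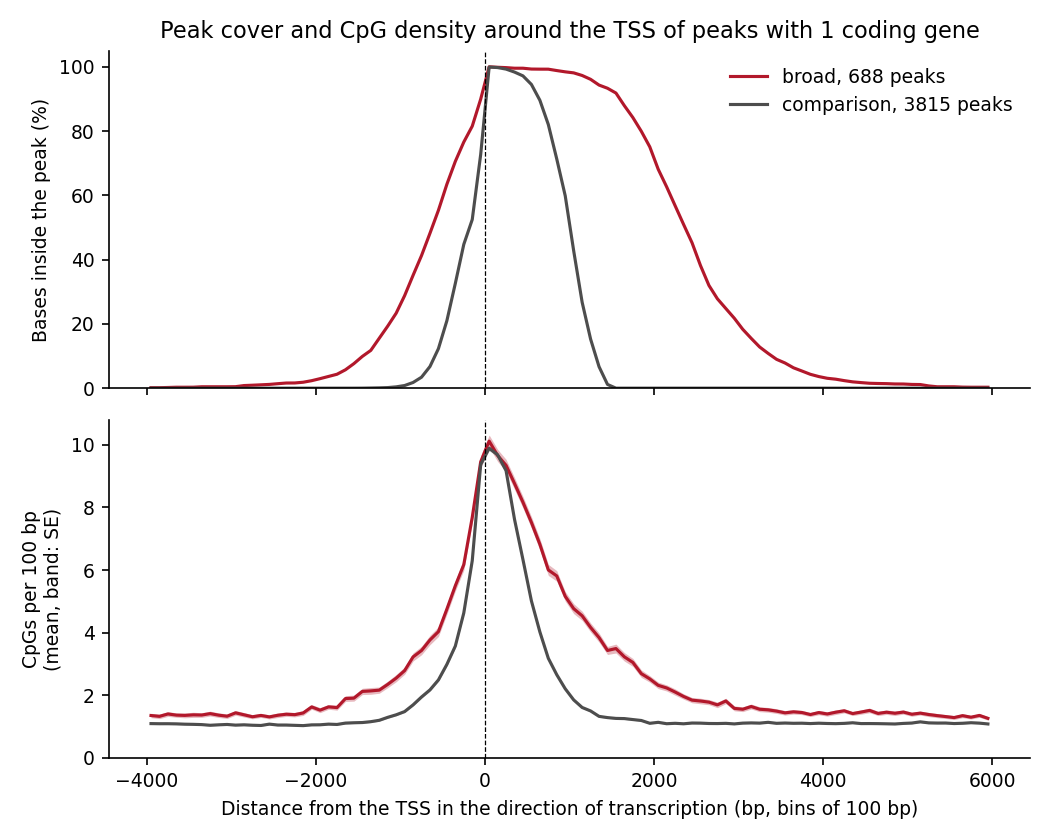
Share of bases inside the peak (top, %) and mean CpGs per 100 bp with the standard error as a band (bottom) by distance from the TSS in bins of 100 bp, for 688 broad (red) and 3815 comparison peaks (grey) with 1 coding gene. From 1 to 2 kb downstream, 89.8% of bases at broad and 9.26% at comparison peaks lay in the peak, and CpG density in the first bin after the TSS was 10.1 and 9.89.

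In most genes a broad peak covered the beginning of the gene and in some it covered all of it. The median share of the gene body within broad peaks was 8.17% (quartiles 2.58% and 22.5%, 865 genes). In 91 genes at least 50% was covered, and 12 genes lay wholly inside. These 12 were chosen after their values were seen. They included Pfn1 (profilin, 2795 bp), Id1 (1160 bp) and Ier2 (1522 bp), the hormone gene Adm (2160 bp), the stress genes Gadd45b (2132 bp) and Gadd45g (1791 bp), Rpl13a (3204 bp) and the actin-binding thymosin gene Tmsb10 (1402 bp). Median gene length had overlapping intervals, with 28003 bp (95% interval 24853 to 31711) for genes with a broad peak and 26577 bp (25790 to 27256) over all genes with a peak. The upper quartiles differed more, with 83965 bp for genes with a broad peak and 64225 bp over all genes with a peak, which include them.

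More than 1 gene started in some broad peaks. Of the 819, 93 (11.4%, interval 9.36 to 13.7) held TSSs of at least 2 coding genes, against 5.92% of comparison peaks. For peaks of 1500 to 2500 bp the share was 11.8% (difference -0.454 points, interval -2.75 to 2.13). In 86 broad peaks (10.5%) the coding TSSs lay on both strands, as in divergent pairs, against 4.89% of comparison peaks. Among peaks with a coding TSS this share was 11.01% in broad peaks and 11.2% in peaks of 1500 to 2500 bp (difference -0.235 points, interval -2.55 to 2.38). Col4a1 and Col4a2, which encode the chains of basement membrane collagen, shared a peak of 3269 bp. At least 3 coding genes started in 7 broad peaks. The widest of these (4292 bp) held Hcfc1r1, Thoc6 and Tnfrsf12a, and the next held Bet1l, Gm45785 and Ric8a (3802 bp) and Atf5, Nup62 and Il4i1 (3706 bp). The remaining 4 held Eme2, Mrps34 and Nme3 (3071 bp), Pfkfb2, Gm29427 and Yod1 (3009 bp), Bysl, Med20 and Gm20517 (2764 bp), and Mapkapk5, Gm42878 and Adam1a (2552 bp). Alternative starts were also farther apart: the first and last TSS in a broad peak were a median of 551 bp apart (interval 417 to 669), against 85 bp (78 to 94) in comparison peaks, which offer less room.

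Broad peaks also occurred next to each other. There were 31 pairs with a gap of at most 20 kb, of which the examples named here were chosen after their values were seen, and in 8 of them the gap was at most 1 kb. In 11 pairs both peaks held a TSS of the same gene, such as Fgf9 (3054 and 3022 bp, 291 bp apart), Bcorl1 (2824 and 2527 bp, 213 bp apart) and Rara (5312 and 4600 bp, 16698 bp apart). The Hoxa cluster alone held 6 of the 31 pairs, from a peak with annotated starts of Hoxa3 and Gm28308 to that of Hoxa13. The first of these peaks lay 9931 bp from the next, a Hoxa9 peak. The shortest gap, 73 bp, separated the peaks of the collagen-modifying genes P3h4 (3153 bp) and Fkbp10 (2955 bp). A narrow gap splits a marked stretch into separate peaks, and joining peaks up to 1 kb apart before the width was measured gave 2164 broad peaks.

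The remaining 38 broad peaks held no coding TSS. In 15 of them only genes not labelled protein-coding in GENCODE M21 started, and in 23 no TSS of any gene was found. The label of the annotation decided this, also for an entry named Zswim6 among the 15. The widest was 4664 bp long (chr3:93443413-93448076), with 99.5% of its bases in coding exons and an island of 4338 bp. It lay in Tchh, which encodes the hair follicle protein trichohyalin, 1083 bp from the TSS. The next widest were closest to the TSSs of the H3K27 demethylase gene Kdm6b (4130 bp wide, 1395 bp away), Tbx15 (3930 bp wide, 951 bp away) and Slc35e4 (3914 bp wide, 777 bp away). The distance to the nearest coding TSS was under 200 bp in 12 of the 23 peaks without any TSS and at most 2 kb in 19. Irf2bp2 (20 bp), Lmna (19 bp) and Foxc1 (89 bp) were further examples, picked after their values were seen. The annotated start lay just beyond the peak's edge in these genes, so they were not among the 865. Jun, a member of the AP-1 list, was another such gene: its broad peak (2525 bp) held the start of the antisense gene Junos and ended 22 bp from the Jun TSS.

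In the 15 peaks of non-coding genes, the nearest coding TSS was a median of 35299 bp away. Among these 15, those named here were chosen after their values were seen. The long non-coding RNA genes included Carmn (3520 bp), Neat1 (3456 bp), Lncpint (3205 bp) and Crnde (2937 bp). The others held the host gene or the hairpin of known miRNAs, Mir17hg (2820 bp), Mir193a (2625 bp) and Mir125b-1 (3182 bp). The last had 11 putative enhancers within 50 kb.

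GENCODE miRNA genes overlapped 19 broad peaks. There were 21 such genes, which is 8.18 per Mb of broad peak against 9.70 per Mb of comparison peak, and 13 of them had an entry in RefSeq (GRCm38.p6). Their 22 mature sequences had 22 different seeds, so that no seed was shared. The best known are shown with the seed, bases 2 to 8, in capitals, because the peaks over them lay at a coding gene or stood alone.
mmu-miR-99b-5p (chr17:17830194-17830215, plus strand): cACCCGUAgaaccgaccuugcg
mmu-let-7e-5p (chr17:17830366-17830387, plus strand): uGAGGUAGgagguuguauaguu
mmu-miR-125b-5p (chr9:41581940-41581961, plus strand): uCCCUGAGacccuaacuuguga
mmu-miR-193a-3p (chr11:79712009-79712030, plus strand): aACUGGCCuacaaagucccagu
mmu-miR-196b-5p (chr6:52230129-52230150, minus strand): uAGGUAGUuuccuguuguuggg
Mir99b and Mirlet7e lay together in the downstream part of the Spaca6 peak (4723 bp, chr17:17825857-17830579), and the Mir196b hairpin lay in a Hoxa9 peak of 2634 bp. Mir125b-1 and Mir193a lay in peaks without a coding TSS.

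CpG content was the next measure. Broad peaks had CpG-rich starts and CpG-poorer flanks. A CpG island, called here from the sequence, overlapped 760 of 819 broad peaks (92.8%, interval 90.8 to 94.4) and 87.2% of comparison peaks (difference 5.59 points, interval 3.40 to 7.45). Against peaks of 1500 to 2500 bp the difference, broad minus narrower, was -0.894 points, with an interval that includes 0 (-3.02 to 0.912). At least 2 islands were found in 100 broad peaks (12.2%), in 2.76% of peaks of 1500 to 2500 bp and in 0.958% of comparison peaks. Islands covered a median of 1124 bp of a broad peak (interval 1059 to 1215) and 505 bp of a comparison peak (495 to 516). As a share of the peak these were 37.5% (34.7 to 39.7) and 41.4% (40.4 to 42.1).

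The ratio of observed to expected CpGs divides the CpG count by the count that the content of C and G alone would give. It had a median of 0.628 over broad peaks (interval 0.614 to 0.644) and of 0.675 over comparison peaks (0.669 to 0.681). A window of 1 kb around the TSS, of the same size in both classes, was read only in the 688 and 3815 peaks with exactly 1 coding gene. There the order of these classes was the other way round, with 0.779 (0.761 to 0.794) and 0.750 (0.744 to 0.756). More of the window lay outside comparison peaks. In the 100 bp from 500 bp before the TSS, 63.5% of bases at broad and 21.0% at comparison peaks lay in the peak. In peaks of 1500 to 2500 bp the ratio in this window was 0.790 (0.783 to 0.797). GC content was 58.8% and 58.2% over whole peaks. From 1 to 2 kb downstream of the TSS, CpG density was 3.57 per 100 bp at broad and 1.36 at comparison peaks. From 4 to 6 kb downstream it was 1.40 and 1.10. Within the broad class, the median ratio was 0.643 in peaks under 3000 bp, 0.618 in those from 3000 to 4000 bp and 0.576 in those of 4000 bp or more.

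The ratio ran from 0.131 to 1.11 over broad peaks, from 0.0840 to 1.26 over comparison peaks and from 0 to 1.43 over all peaks. The highest ratios were found at Qk (1.11), an RNA-binding protein gene, Chd7 (1.09), a chromatin remodeller gene, Hmgb1 (1.00), Erbin (0.992) and Mir17hg (0.971). The lowest were found at Arhgef2 (0.131), Serpinf1 (0.136), Ak1 (0.148), Carmn (0.169) and Ccn4 (0.183). Serpinf1 and Ccn4 encode secreted proteins. Of these last 5 peaks 0 overlapped an island, and 59 broad peaks were without one in all. Of these 59, 53 held a coding TSS, and their median ratio was 0.312. Examples from the extracellular matrix list, chosen after their values were seen, were Col6a3 (3765 bp, ratio 0.196), the collagen chaperone gene Serpinh1 (3483 bp, 0.258) and Col1a1 (2761 bp, 0.459).

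Short promoter motifs were counted in 300 bp around the TSS, from 250 bp before to 50 bp after it, on both strands. No string searched is contained in another, though neighbouring matches can share letters. The GC box (GGGCGG) was found in 72.5% of the 688 broad promoters, 69.7% of the 3815 comparison promoters and 35.6% of 32815 RefSeq promoters of the same length. The CCAAT box (CCAAT) was found in 26.6% (interval 23.4 to 30.0), 39.0% (37.5 to 40.6) and 37.4%. The core of the NRF1 site (TGCGCA) was found in 7.12% (5.43 to 9.29), 15.4% (14.3 to 16.6) and 7.74%. For the TATA box (TATAAA) the shares were 7.85% (6.07 to 10.1), 5.09% (4.43 to 5.83) and 13.6%. The E-box (CACGTG) gave 7.70%, 10.9% and 7.15%, and the core of the CRE (TGACGT) gave 11.6%, 12.8% and 7.51%. The AP-1 site (TGACTCA) was found in 3.05%, 3.01% and 5.21%, and the TEAD site (GGAATG) in 11.3%, 10.9% and 14.7%. A match describes these letters in this window and is not evidence of binding.

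Putative enhancers had been defined in control cells by H3K4me1, H3K27ac and accessible chromatin, outside 1 kb of TSSs, and 32965 of them lay on the chromosomes used. The centres of 30570 were over 1 kb from every GENCODE TSS used here. They were closer to broad peaks. The nearest enhancer was a median of 10297 bp from the edge of a broad peak (interval 8867 to 11619) and 24155 bp from that of a comparison peak (23108 to 25479). An enhancer lay within 10 kb of 402 of 819 broad peaks (49.1%, interval 45.7 to 52.5) and of 28.1% of comparison peaks (difference 21.0 points, interval 17.3 to 24.6). Measured from the centre of the peak instead, so that width does not lengthen the window, the shares were 44.6% and 26.7% (difference 17.8 points, interval 14.2 to 21.5). Against peaks of 1500 to 2500 bp the difference was 15.0 points (11.2 to 18.8). Within 50 kb there was a median of 3 enhancers around broad peaks (interval 2 to 3, quartiles 1 and 5) and of 1 around comparison peaks (interval 1 to 2, quartiles 0 and 3). Around peaks of 1500 to 2500 bp the median was 2, a difference of 1 from broad peaks (interval 0 to 1).

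The excess was found on both sides of the peak and, by value, at every distance measured up to 100 kb. It was smallest from 0 to 2 kb downstream, at 1.67 against 1.35 per kb per 100 peaks, where the counting intervals overlap. Around the 688 broad peaks with 1 coding gene, enhancers numbered 3.78 per kb per 100 peaks from 10 to 20 kb downstream and 3.13 on the upstream side, against 1.95 and 1.76 around comparison peaks. From 75 to 100 kb the values were 2.80 and 2.48 around broad peaks and 1.82 and 1.84 around comparison peaks. The difference was present both where genes were sparse and where they were dense. Where at most 1 coding gene had a TSS within 50 kb, 56.1% of 321 broad peaks (interval 50.6 to 61.4) and 34.6% of 1264 comparison peaks (32 to 37.2) had an enhancer within 10 kb. Where at least 7 did, the shares were 38.4% of 99 (29.4 to 48.2) and 20.1% of 453 (16.7 to 24.0).

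**Figure D4:**
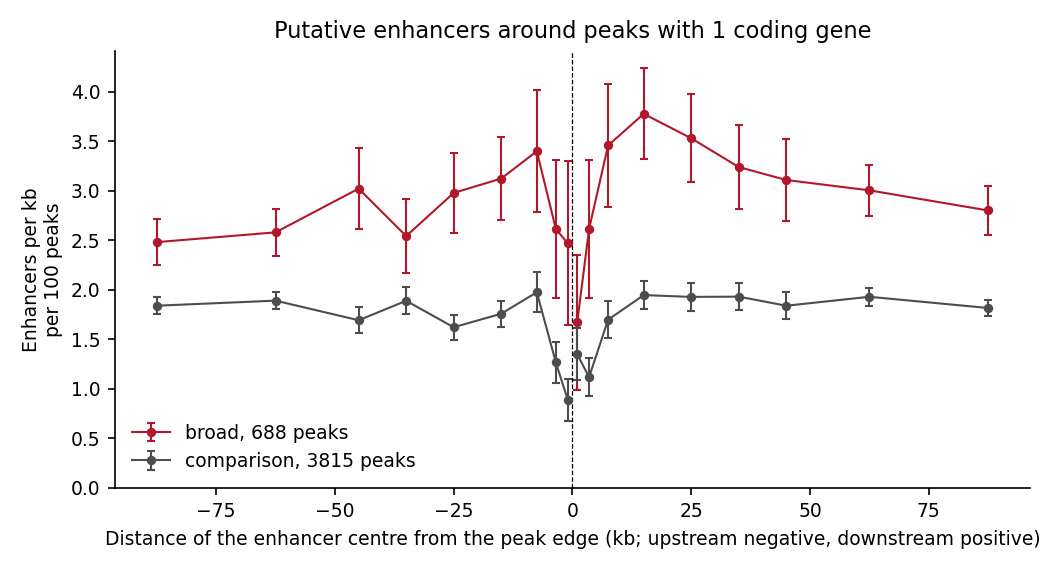
Putative enhancers per kb per 100 peaks by the distance of their centre from the peak edge (kb, upstream negative), for 688 broad (red) and 3815 comparison peaks (grey) with 1 coding gene; bars are 95% counting intervals. Broad peaks lie above comparison peaks in every distance class, for example 3.46 against 1.70 from 5 to 10 kb downstream. The bars overlap from 0 to 2 kb downstream.

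Enhancer regions overlapped 132 broad peaks themselves (16.1%, interval 13.8 to 18.8) and 6.07% of comparison peaks. More of a broad peak lay over 1 kb from every TSS (28.2% of its bases against 9.12%). Per 100 kb of such bases, broad peaks held 8.70 centres of enhancers that were themselves over 1 kb from every TSS (interval 6.68 to 11.1). Comparison peaks held 25.3 (21.2 to 29.9) and peaks of 1500 to 2500 bp held 11.5 (9.29 to 14.0). The order thus turned when this space was counted over all peaks of a class. However, comparison peaks with a coding TSS held a mean of 39.7 bp of such space, against 112 bp over all comparison peaks. The same means were 832 and 884 bp in broad peaks. Among peaks with a coding TSS, 14.7% of broad and 2.54% of comparison peaks overlapped an enhancer. The rate was not computed for these peaks alone. In the 38 broad peaks without a coding TSS, 17 (44.7%, interval 30.1 to 60.3) overlapped an enhancer, against 14.7% of the 781 with one. By width, the shares were 14.3% under 3000 bp, 15.1% from 3000 to 4000 bp and 30.0% (interval 21.1 to 40.8) at 4000 bp or more.

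The most enhancers within 50 kb were found around Sntb2 (14), which encodes a syntrophin. It was followed by Utrn (13), which encodes utrophin, the GTPase-activating protein gene Dlc1 (13), Basp1 (12) and the Notch effector gene Rbpj (12). At least 10 enhancers lay around 17 broad peaks, and 93 broad peaks had none within 50 kb. Pfn1, Kmt2d and Btg2, picked after their values were seen, were without one, at distances of 90685, 56054 and 97237 bp from the nearest enhancer.

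To describe which functions the genes belong to, 20 gene lists were read against the share of 3.98% of all coding genes. Each gene was scored by the widest peak that held a TSS of it, and over all genes with a peak the median of this width was 1268 bp. The lists with the highest shares of broad peaks were those of early response, signalling, mesenchymal, cytoskeletal and extracellular matrix genes, at 31.8% to 50%. No list was tested, since all were chosen with results of these data known.

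Of 30 AP-1 and serum-response early genes found, which respond to growth factors within minutes, 15 had a broad peak (50%, interval 33.2 to 66.8), and the median width over the 26 with a peak was 2680 bp. The widest were those of Myc (4380 bp), the matricellular gene Ccn1 (4045 bp), Fosl2 (4030 bp), Egr1 (3380 bp), Nr4a2 (3353 bp) and Fos (3233 bp). The Fos peak reached 2732 bp upstream and 501 bp downstream. The Myc peak overlapped an enhancer, and 5 lay within 50 kb.

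Among 40 mesenchymal and fibroblast transcription factor genes, 16 had a broad peak (40%, interval 26.3 to 55.4, median width of the 31 with a peak 2590 bp). Snai1 (4293 bp), the nuclear factor I genes Nfix (4154 bp) and Nfic (3541 bp), Foxp1 (4060 bp) and the chromatin protein gene Hmga2 (3902 bp) were among the widest. Nfix held a separate broad peak of 2778 bp at another start. Lists of other lineages were counted likewise. A broad peak was found for 1 of 30 neural factor genes (Dlx2, 3293 bp), 1 of 30 blood factor genes (Gata3, 3098 bp), 1 of 26 endoderm and muscle factor genes (Gata6, 2968 bp) and 1 of 18 pluripotency genes (Tbx3, 2651 bp). These shares lay between 3.33% and 5.56%, near the 3.98% of all coding genes. Most members of these lists had no peak at a TSS, since 12, 13, 8 and 3 genes had one. Of those with a peak, 8.33%, 7.69%, 12.5% and 33.3% had a broad one, against 7.11% over all coding genes with a peak. Among pluripotency genes, Klf5 (1633 bp) and Tfcp2l1 (1030 bp) had peaks outside the broad class, and the other 15 had none.

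TGF-beta and BMP signalling had 13 of 32 genes with a broad peak (40.6%, interval 25.5 to 57.7). Ligands (Tgfb3, 4327 bp, and Bmp4, 3312 bp), inhibitory Smads (Smad7, 7130 bp, and Smad6, 4510 bp) and nuclear repressors (Tgif1, 6270 bp, and Ski, 4145 bp) were the 6 widest. The Smad6 peak began 17 bp upstream of the TSS and ran 4493 bp downstream. Of 30 receptor tyrosine kinase genes, 13 had one (43.3%, interval 27.4 to 60.8), led by Igf1r (5106 bp), the ephrin receptor genes Epha4 (3747 bp), Epha2 (3321 bp) and Ephb4 (3189 bp), and the fibroblast growth factor receptor genes Fgfr2 (3542 bp) and Fgfr1 (3127 bp). The width given for Fgfr2 is that of a peak shared with Ctbp2, in which an annotated Fgfr2 transcript starts, and a separate Fgfr2 peak was 3122 bp wide.

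Of 22 genes of the Hippo pathway, 7 had a broad peak (31.8%, interval 16.4 to 52.7). They included the scaffold genes Ajuba (5061 bp), Amotl2 (3476 bp) and Amotl1 (2766 bp), the DNA-binding partner gene Tead3 (2739 bp), the co-activator gene Wwtr1 (2580 bp), which encodes TAZ, and the kinase regulator gene Mob1b (2552 bp). Among 30 actin cytoskeleton genes there were 12 (40%, interval 24.6 to 57.7), led by Pfn1 (4791 bp), Tagln2 (4053 bp), the actinin genes Actn1 (3996 bp) and Actn4 (3400 bp), the myosin gene Myh9 (3137 bp) and Actb (3012 bp). Of 32 extracellular matrix genes, 11 had one (34.4%, interval 20.4 to 51.7). After Col5a1 (6056 bp) the widest were Loxl3 (4582 bp, in a peak shared with Dok1), Col6a3 (3765 bp), Serpinh1 (3483 bp) and the pair Col4a1 and Col4a2 (3269 bp).

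**Figure D5:**
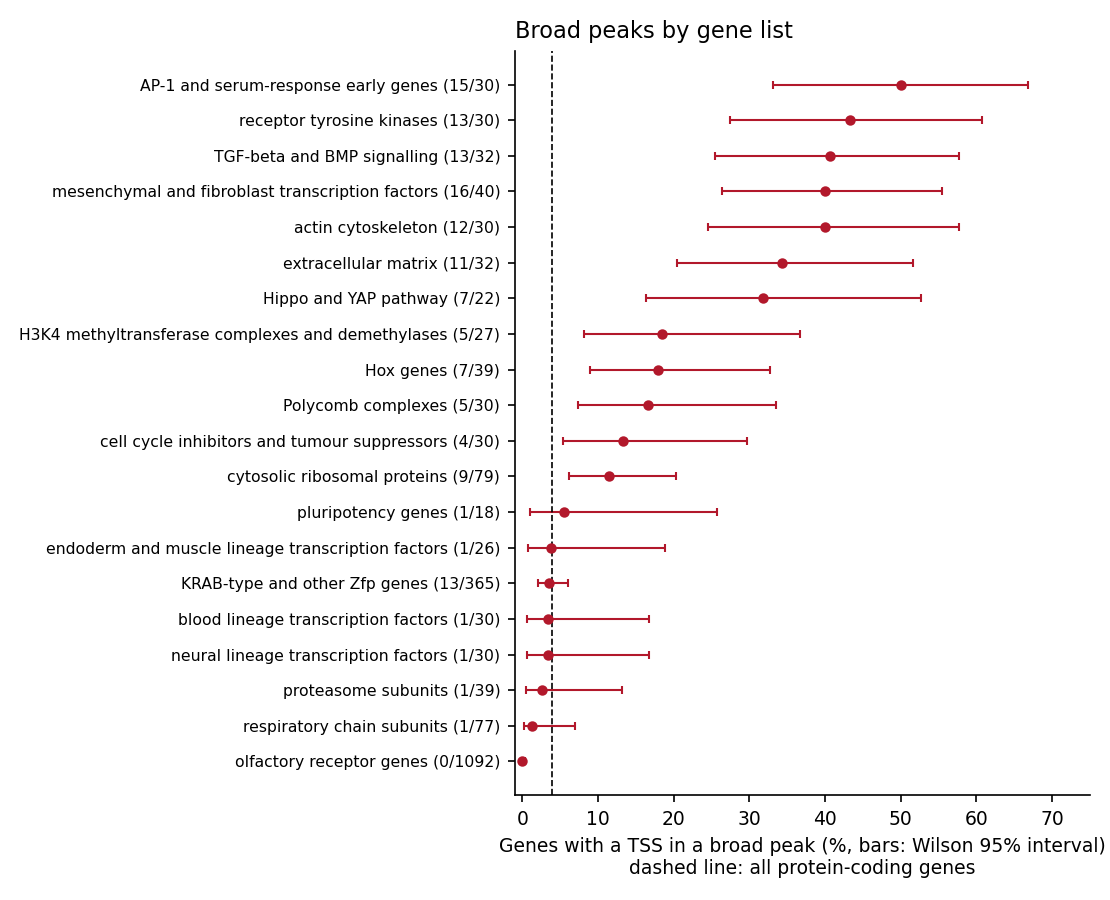
Share of the genes of each list with a TSS in a broad peak (%, points) with Wilson 95% intervals (bars); the counts stand beside the names and the dashed line marks the 3.98% of all protein-coding genes. AP-1 and serum-response early genes are highest with 15 of 30, and of 1092 olfactory receptor genes 0 had a broad peak.

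Genes of the H3K4 methylation machinery itself were described as well, since the study removed 1 of its subunits. Of 27 genes of methyltransferase complexes and demethylases, 5 had a broad peak (18.5%, interval 8.18 to 36.7). They were 4 methyltransferase genes, Kmt2d (4326 bp), Setd1b (4026 bp), Kmt2c (3262 bp) and Setd1a (2617 bp), and the cofactor gene Hcfc1 (3599 bp). The Polycomb list had 5 of 30 (16.7%, interval 7.34 to 33.6), among them Bcor (4424 bp), Phc2 (3722 bp), Pcgf2 (3489 bp) and Pcgf3 (2642 bp). Among cell cycle inhibitors and tumour suppressors there were 4 of 30 (13.3%, interval 5.31 to 29.7): Cdkn1b (3377 bp), Hic1 (3087 bp), Cdkn2a (2899 bp) and Btg2 (2563 bp). Of 39 Hox genes 7 had one, all in the Hoxa and Hoxd clusters, with Hoxd11 (5861 bp), Hoxa11 (4204 bp), Hoxa10 (3606 bp), Hoxa9 (3597 bp), Hoxd12 (3305 bp) and Hoxa3 (3026 bp) the widest. The width given for Hoxa3 is that of a peak shared with Gm28308, in which an annotated Hoxa3 transcript starts.

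Housekeeping genes were counted in 3 lists. For cytosolic ribosomal protein genes the count was 9 of 79 (11.4%, interval 6.11 to 20.3), with Rpl35 (3805 bp), Rpl12 (3680 bp), Rpl3 (3338 bp), Rpl18 (3269 bp), Rpl13a (3246 bp) and Rps10 (2831 bp) the widest. Respiratory chain genes had 1 of 77 (interval 0.230 to 6.996), Ndufs1, in a peak of 2935 bp shared with Eef1b2. Proteasome genes had 1 of 39 (interval 0.454 to 13.2), Psma7, in a peak of 2633 bp shared with Ss18l1. The intervals of ribosomal and respiratory chain genes overlap only between 6.11% and 6.996%, and differences between lists were not tested. A peak of any width was present at 77 ribosomal, 69 respiratory chain and 35 proteasome genes, with median widths of 1823, 1218 and 1183 bp. Of 365 Zfp genes, 13 had a broad peak (3.56%), with Zfp827 (3484 bp), Zfp462 (3299 bp), Zfp703 (3110 bp), Zfp516 (3036 bp), Zfp148 (2837 bp) and Zfp608 (2806 bp) the widest. Of 1092 olfactory receptor genes 0 had a TSS in any peak (upper limit of the interval 0.351%).

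The labelled cell type was checked on markers. All 10 fibroblast markers had a peak, and 6 of them a broad one: Prrx1 (3018 bp), Twist1 (2909 bp), Col1a1 (2761 bp), Pdgfrb (2721 bp), Vim (2598 bp) and Pdgfra (2520 bp). Of 34 markers of epithelium, endothelium, blood and neurons, 8 had a peak and 0 a broad one. The share was 3.98% over all coding genes and 7.11% over those with a peak. With so few markers, a count of 0 lies near these shares. Their widest peak was that of the endothelial factor gene Erg (1716 bp). Ptprc, Pecam1, Cdh5, Krt8 and Rbfox3 had no peak at a TSS.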

How the data were processed

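H3K4me3 ChIP-seq had been made from 12 libraries in 6 groups, with 2 replicates per group and 2 inputs. The authors trimmed reads with Trim Galore, aligned them with BWA to mm10, merged replicates with Picard and called narrow peaks with MACS, per the paper's methods, and DESeq2 and deepTools stand in the submitters' processing notes; versions are not given in the sources used here. The deposited peak and enhancer lists hold start and end positions, with no counts or signal per library, so the depth is unknown and how many libraries support a peak is not shown. The peaks are a union over all samples, and a joined region can be wider than the marked stretch of any 1 library. The authors listed enhancers in control cells.

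Computed here, on GRCm38.p6 with GENCODE M21 (130588 TSS positions), were overlaps, distances and CpG content. A peak was assigned a gene when a transcript start lay in it. Islands (16909) were scored runs (17 per CpG, -1 per other base) of at least 200 bp, over 50% GC and a ratio over 0.6. Shares carry Wilson intervals, differences Newcombe intervals and medians order-statistic intervals, all 95%. No hypothesis test was run. The procedures were tested on simulated data. Members and gene lists were chosen with earlier results of these data known. Named genes were those in the 20 widest peaks, up to 6 per list by width, the 5 widest peaks without a coding start, the 5 with most enhancers, the 5 lowest and 5 highest CpG ratios, peaks of 3 or more genes, and the 3 next to the threshold on each side. Genes picked outside this rule are marked as chosen after their values were seen. A few genes that this rule names are not reported here. Alternatives changed the width minimum, annotation, island rule, enhancer distance, merging and comparison class. Scripts ran in Python 3.11.15 with pandas 2.3.3 for tables, SciPy 1.17.1 and NumPy 2.4.6 for intervals and medians, Numba 0.67.0 for island scoring and Matplotlib 3.10.9 for figures.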

Additional observations from a re-analysis of the deposited data

How the results depend on the processing

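Of 48 alternative values, 29 stayed near the value reported, 17 moved and 2 turned direction. A turn was scored only for differences between classes, so that other values could only stay or move. The 2 that turned compared broad peaks with peaks of 1500 to 2500 bp: the downstream share was then 3.55 points higher, and the island share differed by -0.894 points. Against the same peaks the difference in coding TSSs fell to 1.58 points and that in enhancers within 10 kb to 15.0 points. With a minimum width of 2000 bp (1871 peaks) the CpG ratio was 0.655, the downstream share 76.8%, enhancers within 10 kb 42.5%, and the mesenchymal list 62.5% against 9.25% of all genes. With 3000 bp (364 peaks) the ratio was 0.608 and enhancers within 10 kb 53.3%. Merging peaks within 1 kb gave a downstream share of 76.0% and a mesenchymal share of 65% against 11.4% of all genes. The ratio in the fixed window around the TSS of peaks with exactly 1 coding gene was 0.779, against 0.750 in comparison peaks. This was the other way round from whole peaks. A coding TSS was present in 90.7% with RefSeq and 89.5% with GENCODE basic transcripts. Strict islands were present in 81.6% of broad and 60.6% of comparison peaks. This is a difference of 21.0 points (17.8 to 23.8) against 5.59 with the islands used above. Islands over at least 50% of the bases were present in 31.3% and 35.6%. That difference had the other sign, -4.32 points (-7.70 to -0.797). Enhancers lay within 10 kb of 44.6% from the peak centre, and of 39.6% when those within 1 kb of a TSS were left out. No paired analysis was possible because neither list gives a value for any library. For the same reason no replicate could be left out, the depth is unknown, and the effect of dTAG on any broad peak was not analysed here.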

Other observations

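Another peak lay within 1 kb of 45.5% of broad and 44.7% of comparison peaks (difference 0.810 points, interval -2.86 to 4.52). For peaks of 1500 to 2500 bp the share was 40.4% (difference 5.13 points, interval 1.35 to 8.93), and for peaks under 1000 bp it was 53.8% (difference -8.24 points, interval -11.7 to -4.73). Of the 781 broad peaks with a coding TSS, 185 also held a non-coding TSS (23.7%), against 9.59% of comparison peaks with a coding TSS, in a wider space. The 59 broad peaks without an island lay in introns over a median of 70.1% of their bases.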
